A study of Homo sapiens with 4 samples.

Results

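Ribosome footprints on nuclear genes were compared between GC7 and DMSO in proliferating BJ-Ras-ER cells, with 1 library for each treatment. All features of the count tables outside the mitochondrial chromosome were taken when they held at least 40 counts over the 4 libraries of the series, which chose 11128 of 57820 features. BJ is a human fibroblast line, and in its BJ-Ras-ER derivative, which also carries hTERT, adding 4-OHT turns on a mutant H-Ras. Both proliferating libraries came from cells without 4-OHT, and the GC7 library came from cells given 10 µM GC7 for 18 h. The other 2 libraries came from cells in oncogene-induced senescence (OIS), after 100 nM 4-OHT for 12 days, with DMSO or with the same GC7 treatment. The treatment entry of the proliferating GC7 library names DMSO and that of the OIS DMSO library names GC7, and the titles were followed.

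eIF5A is a translation factor that helps ribosomes form peptide bonds at sequences where they are slow, above all in runs of proline, and it acts in termination too. It works only after a lysine has been turned into hypusine, which takes spermidine and the enzymes DHPS and DOHH. GC7 inhibits DHPS, and the comparison asks how footprints were spread over genes with and without this inhibitor. How far hypusination fell in the proliferating cells was not measured here. The paper reports that hypusination was more sensitive to GC7 in OIS than in proliferating cells. It also reports that GC7 lowered protein synthesis in senescent cells alone. Both the amount of an mRNA and its coverage by ribosomes set its footprint count, and the contributions cannot be told apart here, as no RNA-seq libraries were used.

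Genes are given by Ensembl number, because neither the count tables nor the reference gene table pairs these numbers with names. A count of identical identifiers found 0 of 57820 features in that table. Gene lists, marker genes of fibroblasts and of other cell types, and protein and promoter motifs were therefore not analysed here, and the fibroblast label was not checked against its markers. Following the rule set for unnamed features, 2 numbers that were higher with GC7 and 2 that were lower are printed, and all others are described as groups.

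The proliferating libraries held 4323662 counts with DMSO and 6553835 with GC7, and the OIS libraries held 3039026 and 4860980. The mitochondrial chromosome held 2.89% of the counts in proliferating DMSO cells and 0.0281% in proliferating GC7 cells. In OIS cells it held 12.2% with DMSO and 0.141% with GC7. The 10 features with the most counts held 10.1% of the proliferating DMSO and 9.34% of the proliferating GC7 library. Nuclear features under 500 exonic bases held 2.21% and 1.96% of these 2 libraries. Counts were scaled by the TMM method over the 11128 nuclear features, and a level is given in CPM, the count divided by the TMM-scaled library size, which is not divided by gene length. With 1 library per condition there is no replicate check and no test between conditions. Intervals are 95% exact intervals unless another kind is named, and all of them cover counting error only.

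Most nuclear features differed by less than 2-fold between GC7 and DMSO. The median log2 ratio of GC7 to DMSO was 0.017, 25% of the features lay below -0.24 and 25% above 0.29. To be called, a feature had to differ by 2-fold or more, with a counting interval that left out equal levels. By this rule 381 features were higher with GC7, which is 3.42% of those tested, and 229 were lower, which is 2.06%. The called features that were higher had a median ratio of 2.55-fold, and 64 of them were at least 4-fold higher. Those that were lower had a median ratio of 2.34-fold, and 28 of them were at least 4-fold lower. The whole interval lay beyond 2-fold for 117 of the 381 higher and for 62 of the 229 lower features.

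**Figure D1:**
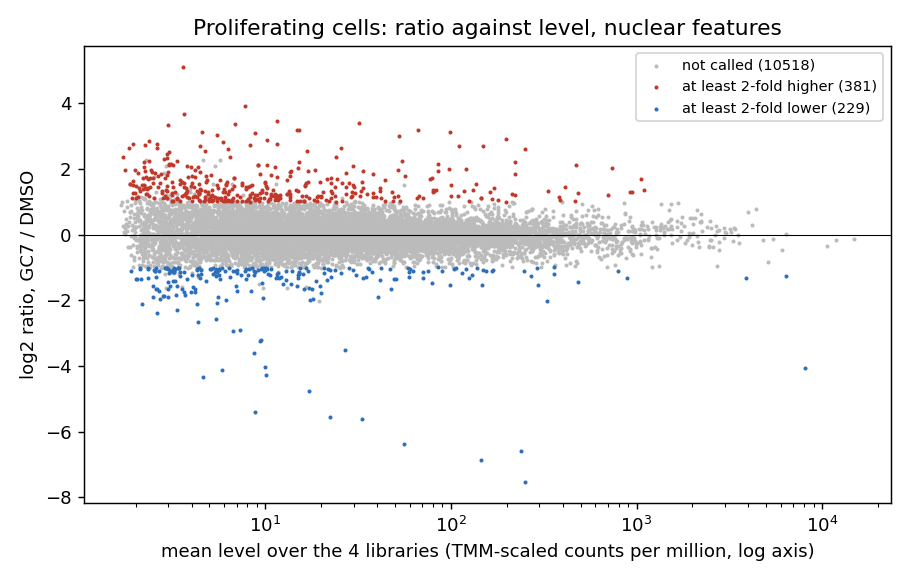
The log2 ratio of GC7 to DMSO in proliferating cells (vertical axis) is plotted against the mean level over the 4 libraries in scaled CPM (horizontal log axis), with 1 point per nuclear feature and the called features in colour. The 381 higher and 229 lower features lie on both sides of a median of 0.017, and the ratios spread more widely at low levels.

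Smaller differences were far more common than called ones. The interval excluded equal levels for 4390 features, or 39.5%, with 2234 of them higher and 2156 lower with GC7. How many of these would differ between 2 DMSO libraries is unknown. Some features had no footprint at all in 1 of the proliferating libraries. There were 18 with counts in GC7 alone and 12 with counts in DMSO alone, and 3 and 6 of these were called.

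The called features carried a small part of all footprints. The 381 higher features held 1.03% of the counts on tested features in proliferating DMSO cells and 3.0% in proliferating GC7 cells. The 229 lower features held 2.22% with DMSO and 0.801% with GC7. These shares describe the features that the ratio itself picked out. Among the lower features, the one with the most counts had only 116 exonic bases and held 21913 counts with DMSO and 14548 with GC7, a log2 ratio of -1.26 (interval -1.29 to -1.23), so it is uncertain as a footprint of an mRNA. Without it the lower features held 1.70% with DMSO and 0.578% with GC7. Features that were not called held 96.8% and 96.2% of the counts.

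Called features were concentrated at low levels. When the features were divided into 4 equal groups of 2782 by their mean level over all 4 libraries, 216 of the group with the lowest level were higher with GC7 and 126 were lower, or 7.76% and 4.53%. In the second group 79 were higher and 46 lower, and in the third 39 and 22. In the group with the highest level 47 were higher and 35 lower, or 1.69% and 1.26%. The median width of the counting interval fell over these groups from 1.63 to 0.30 on the log2 scale, since the median number of counts over both proliferating libraries went from 61 to 1513.5. The median log2 ratio went from 0.10 in the lowest group to -0.04 in the highest.

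By exonic length, the shortest group had the most called features, with 122 higher and 83 lower. The second held 91 higher and 58 lower features, the third 95 and 52, and the longest 73 and 36. Level moved with length: the median level was 20.8 scaled CPM in the shortest group and 35.7 in the longest. Whether length plays a part apart from level was not tested. The shortest group ran from 50 to 3159 exonic bases, and 214 of all tested features (1.92%) had under 500. Such short features made up 15 of the 381 higher ones (3.94%) and 22 of the 229 lower ones (9.61%).

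**Figure D2:**
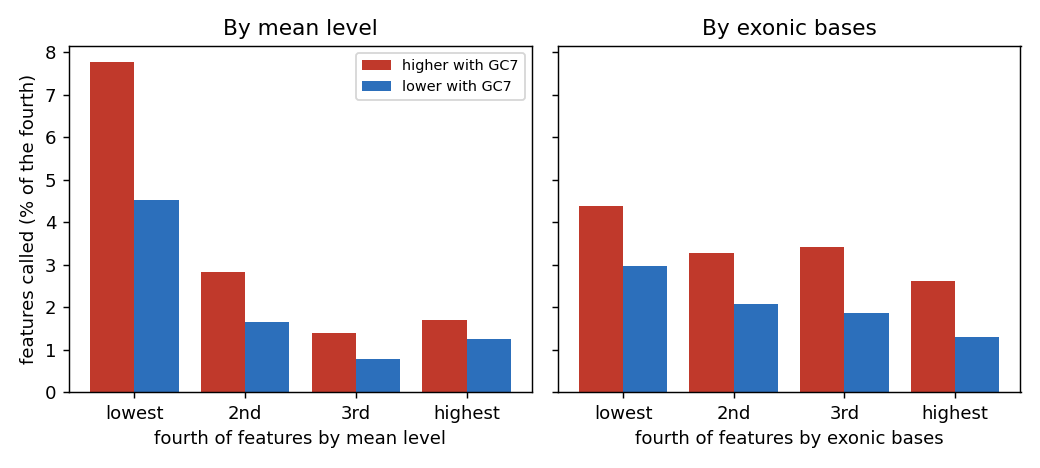
Bars give the percentage of features called higher or lower with GC7 in proliferating cells (vertical axis, from 0) in 4 equal groups of 2782 features by mean level (left) or by exonic bases (right). The group with the lowest level had 7.76% higher and 4.53% lower features, against 1.69% and 1.26% in the group with the highest level.

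Called features lay on every chromosome from 1 to 22 and on X. The share called higher ran from 0.948% on chromosome 13 (2 of 211 features) and 0.958% on X (3 of 313) to 5.01% on chromosome 16 (25 of 499). The share called lower ran from 0.56% on chromosome 15 (2 of 357) to 3.77% on chromosome 21 (4 of 106). These rest on few features per chromosome. The table headers name no strand option, so genes that overlap on opposite strands cannot be separated. Of the tested features, 20.9% overlapped another tested feature on the opposite strand, against 18.1% of the higher and 19.7% of the lower ones.

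Among features with at least 500 exonic bases and at least 200 counts over the proliferating pair, ENSG00000147852.11 had the highest ratio. It lies on the plus strand of chromosome 9 of hg19, from 2621834 to 2660053, with 9339 exonic bases. It held 24 counts with DMSO and 416 with GC7 in proliferating cells, and 66 and 172 in OIS cells. Its log2 ratio in proliferating cells was 3.40 (interval 2.86 to 4.11), or 10.5-fold. In OIS cells the log2 ratio was 0.33, and its interval of -0.08 to 0.77 included equal levels. The proliferating DMSO library was the lowest of the 4 for this feature, at 5.20 scaled CPM against 29.4 to 56.8 in the others. The log2 ratio in proliferating cells exceeded that in OIS cells by 3.07 (95% counting interval 2.34 to 3.79, by normal approximation). This feature was picked for its ratio in proliferating cells, and the interval takes no account of that choice. A difference between the states was therefore not tested.

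ENSG00000261824.2 followed, with 19 counts with DMSO and 286 with GC7 in proliferating cells, and 18 and 44 in OIS cells. The feature spans 28175488 to 28284848 on the minus strand of chromosome 19 and has 7958 exonic bases. Its log2 ratio was 3.18 (interval 2.58 to 4.0) in proliferating cells and 0.24 (interval -0.58 to 1.12) in OIS cells. The proliferating GC7 library stood above the other 3, at 39.1 scaled CPM against 4.12 to 9.49. ENSG00000261824.2 overlaps another tested feature on the opposite strand, so its counts are uncertain.

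The lowest ratio was that of ENSG00000248527.1, which spans 569076 to 569756 on the plus strand of chromosome 1 with 681 exonic bases. It held 887 counts in proliferating DMSO and 6 in proliferating GC7 cells, and 1802 and 19 in the OIS libraries. The log2 ratio was -7.54 in proliferating cells (interval -9.32 to -6.75) and -7.54 in OIS cells (interval -8.35 to -6.97). ENSG00000244921.2, on the minus strand of chromosome 5 from 134258993 to 134259739 with 747 exonic bases, was next. It held 764 counts with DMSO and 9 with GC7 in proliferating cells, and 912 and 22 in OIS cells. Its log2 ratio was -6.85 (interval -8.21 to -6.14) in proliferating and -6.36 in OIS cells (interval -7.10 to -5.81), and it overlaps another tested feature on the opposite strand. In both states the DMSO level of these features lay far above the GC7 level.

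The fall of these features was close to that of the mitochondrial chromosome as a whole. Its summed counts went from 124760 with DMSO to 1843 with GC7 in proliferating cells. With the nuclear scaling this was a log2 ratio of -6.75 (interval -6.81 to -6.68). Only 2 nuclear features, those printed here, were at or below that value. In OIS cells its summed counts went from 369510 to 6861, a log2 ratio of -6.80 (interval -6.83 to -6.76). The nuclear genome contains copies of mitochondrial sequence, and reads from the mitochondrial chromosome can be counted on such copies. Whether this is so for ENSG00000248527.1 and ENSG00000244921.2 was not tested, so both counts are uncertain as a measure of nuclear genes.

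**Figure D3:**
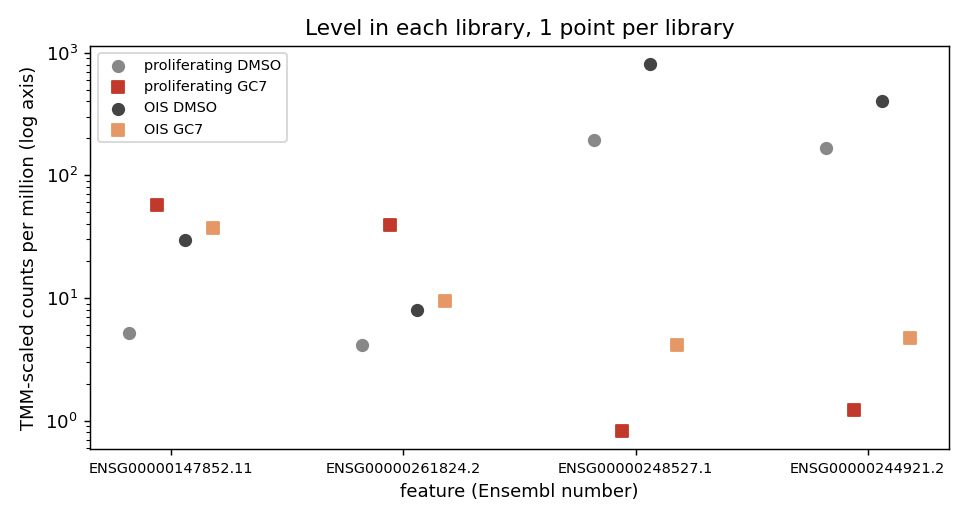
The level of the 2 highest and 2 lowest features (horizontal axis) is shown in each library as scaled CPM (vertical log axis), 1 point per library. ENSG00000147852.11 is lowest in proliferating DMSO at 5.20, ENSG00000261824.2 is highest in proliferating GC7 at 39.1, and the other features are low in both GC7 libraries.

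The OIS libraries measured the same treatment on the same features in cells that share no library with the proliferating pair. In OIS cells 3.57% of the 11128 features were called higher and 2.79% lower. The 381 features called higher in proliferating cells had a median log2 ratio of 0.28 in OIS cells, against 0.010 over all tested features, and 236 of them (61.9%) lay above 0, against 50.9% of all. In OIS cells 35 of them were called higher, 10 lower and 336 neither. The 229 features called lower in proliferating cells had a median log2 ratio of -0.21 in OIS cells, and 140 of them (61.1%) lay below 0, against 49.0% of all. Of these, 43 were called lower, 13 higher and 173 neither. The ranges were wide, with quartiles in OIS cells of -0.28 and 0.71 for the higher features and of -0.85 and 0.31 for the lower ones.

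These OIS values depend on the scaling of the OIS libraries. With total counts in place of TMM, the median log2 ratio over all tested features in OIS cells was 0.19, and 653 features were called higher and 190 lower in place of 397 and 310. The following values under this scaling were added after the data were seen. Of the 381 higher features 69.6% lay above 0, against 66.1% of all, with a median of 0.46. Of the 229 lower features 52.4% lay below 0, against 33.9% of all, with a median of -0.02.

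The features with the largest falls in proliferating cells were also lower with GC7 in OIS cells. After the values were seen, the 17 features called at least 8-fold lower in proliferating cells were set apart, and all 17 were called lower in OIS cells too, with a median log2 ratio there of -6.09 (range -7.54 to -2.72). Among them are both lower features printed above, and 2 of the 17 have under 500 exonic bases. Of the remaining 212 lower features, 26 were called lower in OIS cells and 123 (58.0%) lay below 0. Their median log2 ratio there was -0.15, and their range of -5.74 to 4.12 overlapped that of the 17. Over all tested features 2.79% were called lower in OIS cells and 49.0% lay below 0, with a median of 0.010. The 17 went from 17277 counts with DMSO to 1381 with GC7 in proliferating cells, and from 70256 to 3004 in OIS cells. Whether reads from the mitochondrial chromosome were counted on these 17 features was not tested. The 14 features called at least 8-fold higher in proliferating cells were not set apart in this way. Among those are both higher features printed above, whose intervals in OIS cells included equal levels.

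Across the 6983 features with at least 200 counts over the proliferating pair, Spearman's rho between the log2 ratios of proliferating and OIS cells was 0.254. Over all 11128 tested features it was 0.168. This is a correlation across features, which are not independent replicates and which share libraries within each ratio.

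**Figure D4:**
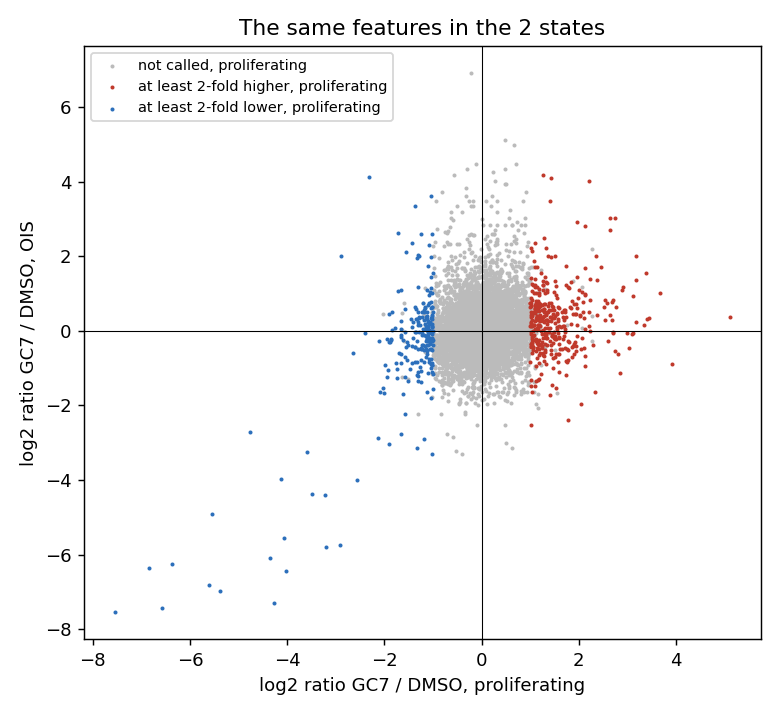
Each point is a nuclear feature, with its log2 ratio of GC7 to DMSO in proliferating cells (horizontal axis) and in OIS cells (vertical axis), coloured by the call in proliferating cells. The higher features have a median of 0.28 and the lower ones of -0.21 on the OIS axis, and some of each lie on the other side of 0.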

How the data were processed

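Ribosome profiling was analysed in 4 libraries, 1 per condition, grouped by title. Per the submitters' notes, the authors used STAR version 2.5.3a and the hg19 build. Per the file headers, featureCounts version 1.5.1 counted reads on GENCODE version 19, and the authors deposited raw counts per gene. Per the study's methods, the linkers carried molecular identifiers. Whether the counting used these is not stated in the sources read, and the file headers name no strand option.

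Nuclear features with at least 40 counts over the 4 libraries were scaled with TMM (edgeR version 4.0.16, R version 4.3.3). Log2 ratios used a prior count of 1. Their intervals were exact conditional binomial (Clopper-Pearson) at 95%, in Python version 3.11.15 with scipy version 1.17.1. The interval for the difference between states used a normal approximation. The procedure was tested on simulated counts with known folds and counting error only. That test leaves out differences between cultures or preparations. The features, lists and rules were chosen with earlier results of these data known.

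The RefSeq gene table (GRCh38.p14) matched 0 of 57820 features on an identifier, so the 46 gene lists have no result. Pairing genes by span and spacing between the assemblies was tried in several versions, some after ratios had been seen. It was dropped because it carries positions across builds, and no name or value from it is used. Printed numbers are the 2 highest and 2 lowest called ratios with at least 500 exonic bases and 200 counts over the proliferating pair. Other scalings, count filters, fold limits, intervals and a prior count of 5 were tried.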

Additional observations from a re-analysis of the deposited data

Results flagged for a closer look

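With GC7, 23 features were called in opposite directions in proliferating and OIS cells. Of these, 10 were higher in proliferating and lower in OIS cells, and 13 were lower in proliferating and higher in OIS cells. The 10 are 2.62% of the 381 higher features, against 2.79% of all tested features called lower in OIS cells, and the 13 are 5.68% of the 229 lower features, against 3.57% of all called higher. The first share is thus near that over all features. The difference was not tested, since each state has 1 library per treatment, and 0 of the 23 had at least 400 counts in each pair of libraries. The count filter summed all 4 libraries, so features with few counts in the proliferating pair could enter through their OIS counts. With at least 40 counts over the proliferating pair, 163 features were called lower in place of 229. How far this filter bears on the 13 was not tested.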

How the results depend on the processing

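No paired analysis was possible because the groups compared within proliferating cells share 1 replicate number, with 1 library each, and for the same reason no library could be left out. A fit of treatment and state over all 4 libraries asks about an effect shared by the states and was not run here. With DESeq2 size factors (DESeq2 version 1.42.0), total count, upper quartile, TMM over the proliferating libraries alone, at least 500 exonic bases, at least 40 counts over the proliferating pair, a prior count of 5 or a 99% interval, both counts of called features in proliferating cells stayed within 1.5 times of 381 higher and 229 lower. They came to 632 higher and 353 lower with at least 1 count, to 114 and 50 with at least 400 counts, to 952 and 752 with a 1.5-fold limit and to 127 and 57 with a 3-fold limit. In OIS cells, scaling by total count gave 653 higher and 190 lower features in place of 397 and 310. The higher share of called features in proliferating cells was 62.5%, and it ran from 55.9% with a 1.5-fold limit to 69.5% with at least 400 counts. The 4 printed features kept their direction and call under the alternatives that included them (47 values). The alternatives for gene lists and protein motifs were not run, as no feature was named. Depth limits what can be seen at low levels, and intervals do not cover differences between cultures or preparations.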
